A study of Oryzias latipes with 8 samples.

Results

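The genes described here encode proteins of the messenger RNA splicing machinery and related RNA-binding proteins of medaka (Oryzias latipes). They are the 41 medaka genes whose symbol, in the authors' sheets of changed genes, begins with a name of a splicing factor family (sf3a, sf3b, snrp, snrnp, prpf, srsf, lsm, u2af, hnrnp, rbm, cwc, txnl4) or reads bcas2, aqr or plrg1. No gene named u2af, cwc or txnl4 was among them. The count tables held 16957 genes with counts in every library, 15640 genes passed the filter on low counts, and all 41 splicing factor genes were among the tested genes. Symbols were at hand only for genes that the authors had listed as changed in at least 1 comparison, and each member had passed the authors' thresholds in at least 1 of the 3 comparisons described below. Counts of members called, set beside shares of all genes, therefore largely restate how the members were chosen. For edgeR calls with all groups fitted together, the share among all genes in the same sheets is given as well, and both are descriptions. Counts of groups that do not overlap and of lowest means carry no such share. In the RefSeq gene table of medaka (assembly ASM223467v1), 91 symbols fit the same naming pattern, and 27 of them match a symbol of these genes exactly. The other 64 were not analysed under those symbols. Whether any of them is a member under another name was not checked.

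RNA was sequenced from cells sorted from the optic tectum, the dorsal midbrain, of medaka aged 1 month, in 8 libraries. The wdr12 GFP-positive cells (n = 3 libraries), below the neuroepithelial sort, come from the Wdr12:GFP line, in which the promoter of wdr12, a ribosome assembly gene, drives GFP in the neuroepithelial cells of the growing tectum. The wdr12 GFP-negative cells (n = 2), below the GFP-negative sort, are the remaining tectal cells of the same line, described in the labels as a mixture of amplifying progenitors, neurons and glia. The ebf3 GFP-positive cells (n = 3), below the ebf3 sort, come from the ebf3:GFP line and are post-mitotic progenitors and neurons. Tecta were pooled before dissociation, all groups went through the same sort and library kit, and GFP marks what each promoter is active in, which need not be 1 cell type.

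Splicing removes introns from pre-mRNA in the spliceosome, which is built from small nuclear RNAs wrapped in protein rings (the U1, U2, U4, U5 and U6 particles) and a large set of joining and leaving proteins. The U1 particle marks the start of an intron and the U2 particle its branch site; the U4/U6.U5 assembly then joins, and the Prp19 complex accompanies the catalytic steps. SR proteins and heterogeneous nuclear ribonucleoproteins (hnRNPs) bind the transcripts themselves and influence which splice sites are used. Neural progenitors and neurons are known to splice many transcripts differently, with regulators of the PTBP, RBFOX, ELAVL, NOVA and CELF families among those involved.

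Total counts were 8511255 to 11580629 in the neuroepithelial libraries, 3497101 and 5798458 in the GFP-negative libraries and 5247836 to 7708019 in the ebf3 libraries. Markers of dividing cells summed to 4121 to 8831 CPM (counts relative to library size) in the neuroepithelial sort, 284 to 410 in the GFP-negative sort and 425 to 577 in the ebf3 sort, and all 9 of 9 found were called higher in the neuroepithelial sort than in each control. Neuronal markers (11 found) summed to 1509 to 2577 CPM in the neuroepithelial sort, 3292 to 3788 in the GFP-negative sort and 3855 to 5434 in the ebf3 sort. The GFP-negative libraries stood apart in their content of red blood cell RNA: the 5 globin genes took 4.27% and 15.7% of their counts, against 0.0115 to 0.117% in the other 6 libraries. The neuroepithelial libraries held transcripts of other cell types as well. Liver plasma protein genes (2 found) summed to 23133 to 100941 CPM there, 15122 to 16467 in the GFP-negative sort and 511 to 2562 in the ebf3 sort. Microglia markers (4 found) summed to 624 to 1259, 606 to 646 and 56.4 to 207 CPM in the same order. Values per library are given below in the order replicate 1, 2, 3, as CPM with TMM normalisation; log2 fold changes carry their SE, and a gene is called higher or lower at an adjusted p under 0.05 in edgeR's quasi-likelihood test over all 15640 genes.

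Most of the 41 splicing factor genes were lower in the GFP-negative sort than in both sorts of GFP-positive cells. Counts of the 41 genes made up 1.10%, 0.806% and 0.670% of all counts in the neuroepithelial libraries, 0.603% and 0.524% in the GFP-negative libraries, and 1.08%, 0.967% and 0.889% in the ebf3 libraries. In normalised CPM the sums were 9969 ± 3343 (SD, n = 3), 4901 ± 444 (SD, n = 2) and 9446 ± 1491 (SD, n = 3), so the GFP-negative libraries lay below all others, while the GFP-positive sorts overlapped. For 29 of the 41 genes (70.7%), both GFP-negative libraries lay below each of the other 6, an arrangement found in 9.9% of all genes tested. The GFP-negative mean was the lowest of the 3 group means for 35 members (85.4%), against 32.6% of all genes. Every member with the lowest GFP-negative mean came from sheets of genes that the authors listed as lower in the GFP-negative sort. These sheets compare it with the neuroepithelial or the ebf3 sort. Both counts therefore largely restate how the members were chosen and add no support of their own. Shares among all genes in the sheets were not computed for these counts. In these sorted bulk samples, fewer cells that express a gene and less of its RNA per cell cannot be told apart.

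**Figure D1:**
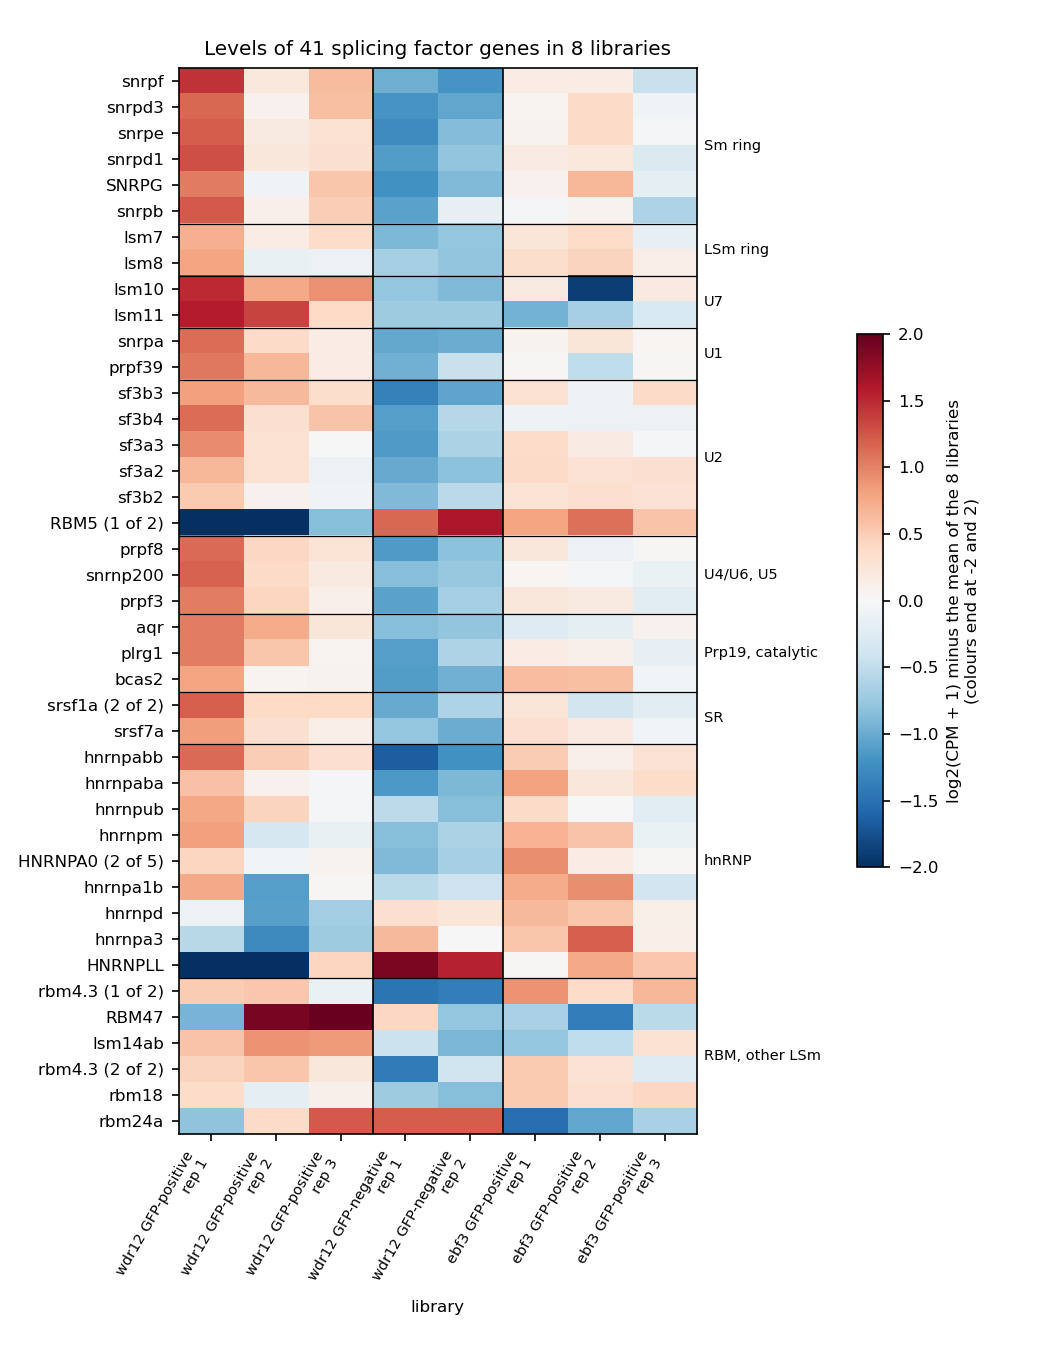
Levels of the 41 splicing factor genes (vertical axis, grouped by role) in the 8 libraries (horizontal axis), coloured by log2(CPM + 1) minus the gene's mean over the libraries, with colours ending at -2 and 2. The 2 wdr12 GFP-negative columns are blue for most genes, with RBM5 (1 of 2), HNRNPLL, hnrnpd and rbm24a red, and replicate 1 is the reddest wdr12 GFP-positive column.

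The first comparison sets the neuroepithelial sort against the rest of the tectum. Of the 41 genes, 28 were called higher in the neuroepithelial than in the GFP-negative sort (68.3%, where 9.92% of all genes tested were). Another 2 were called lower (9.84% of all genes) and 11 were not called. Among the 4658 tested genes in the authors' sheets, 29.9% were called higher and 30.7% lower. The authors' deposited values, at an adjusted p under 0.05 and a log2 fold change of at least 1, gave 29 members higher and 2 lower. Over all genes those shares were 9.69% and 10.2%. All members called here were among those of the authors, so the calls repeat the choice of members. The median log2 fold change over the 41 genes was 1.40, or 2.64-fold, beside a median of 0.05 over all genes tested and 0.31 over the 4658 tested genes with a symbol. The genes not called include 8 with a positive log2 fold change. The groups did not overlap for 34 members with the neuroepithelial sort above (25.4% of all genes tested) and for 4 with it below (24.5%). With only these 2 groups in the fit, edgeR called 26 members higher (9.41% of its genes) and 1 lower (9.66%).

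The comparison rests on only 2 GFP-negative libraries, of which replicate 1 has the lowest total count of the 8 libraries. Without GFP-negative replicate 1, when the lone library is assumed to vary like the other groups, 5 members were called higher (3.41% of all genes) and 1 lower (5.45%); without replicate 2, 14 (4.27%) and 1 (4.77%). Calls over all genes fell in the same fits. The members called in every fit with 1 library left out were snrpd3, snrpf, sf3b3, hnrnpabb and rbm4.3 (1 of 2), all higher, and RBM5 (1 of 2), lower. The share of all genes called in every such fit was not computed. All 30 called members kept their sign in each of these fits, and the median was 1.30 without GFP-negative replicate 1 and 1.58 without replicate 2. Without neuroepithelial replicate 1, which was the highest of its group for 34 of the 41 genes (82.9%, against 34.4% of all genes), the median was 1.06 and 25 members were called higher (8.26% of all genes) and 4 lower (9.77%); without neuroepithelial replicate 2, 26 (8.62%) and 1 (9.25%). With the 5 globin genes left out of the tables, 29 members were called higher and 2 lower, beside 1557 and 1534 of the 15671 genes tested. The part of other cell types in the GFP-negative sort in these differences was not tested.

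**Figure D2:**
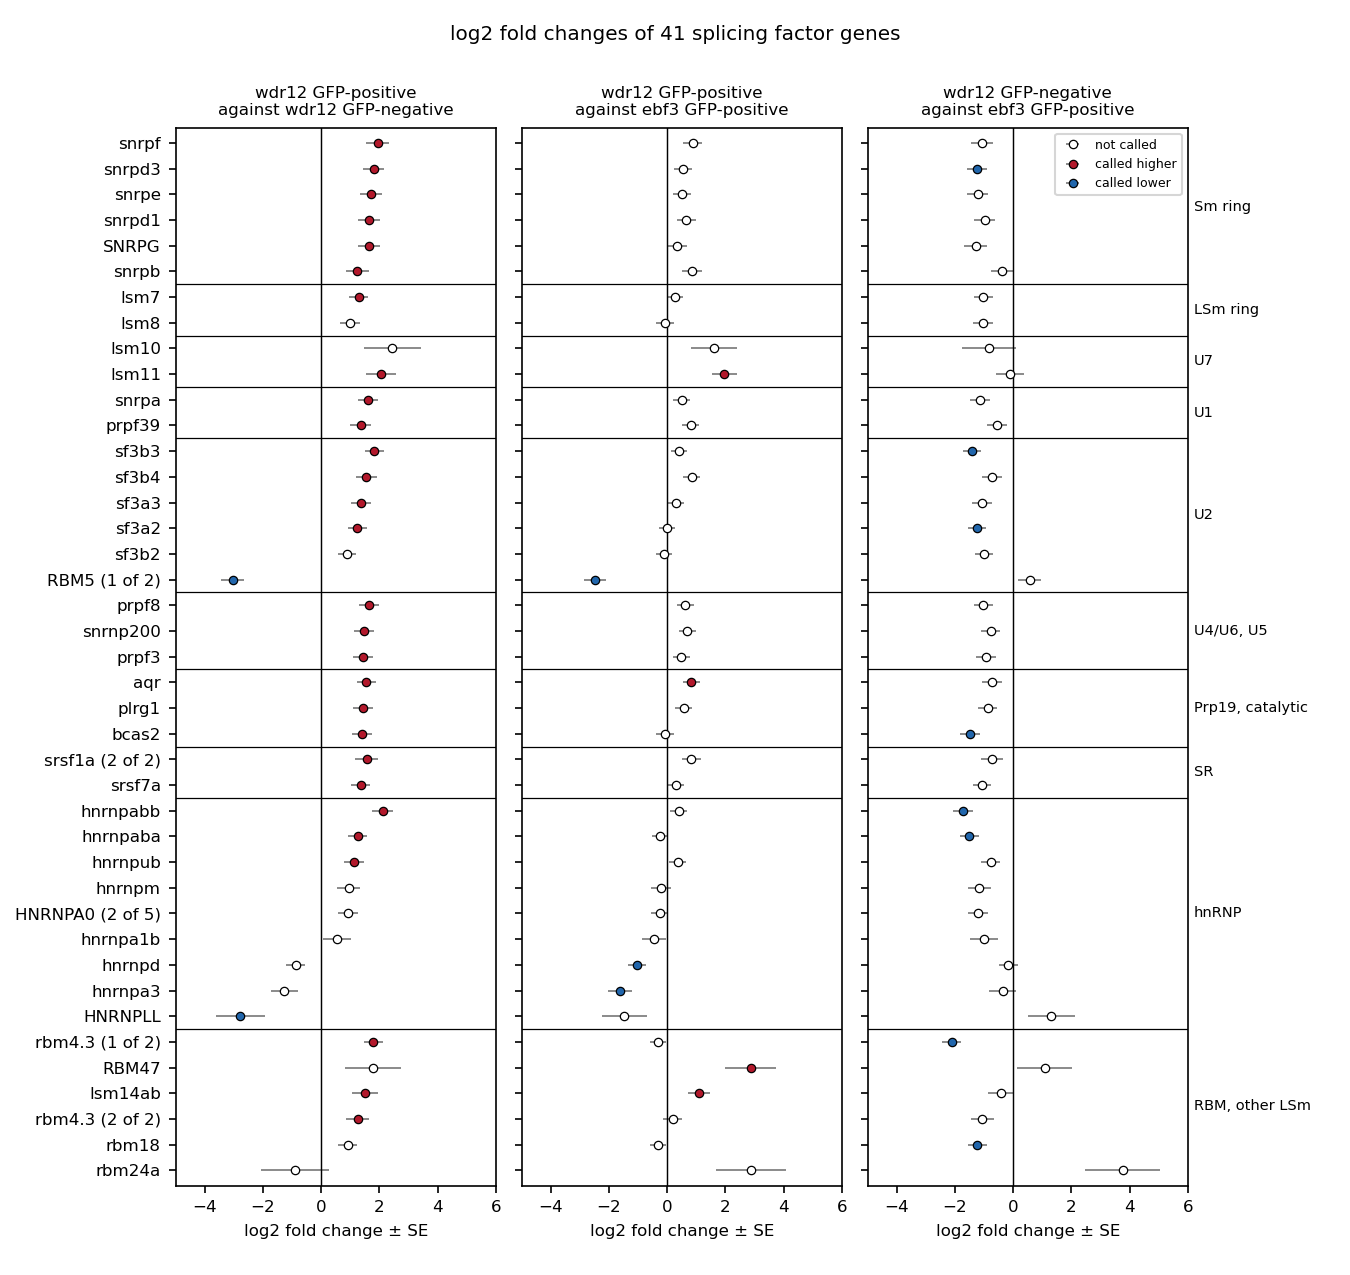
log2 fold changes ± SE (horizontal axes) of the 41 splicing factor genes (vertical axis, grouped by role) in the 3 comparisons, with filled points for genes called at an adjusted p under 0.05. In the left panel 28 genes are called higher and 2 lower, in the middle panel 4 and 3, and in the right panel 8 lower; the 3 panels share libraries and are not independent.

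The Sm proteins form the ring around the U1, U2, U4 and U5 RNAs, and all 6 found (snrpb, snrpd1, snrpd3, snrpe, snrpf and SNRPG) were called higher in the neuroepithelial than in the GFP-negative sort. Their median log2 fold change was 1.68. For this and the other counts by role, the background is the shares of all genes and of genes in the sheets given above. Their summed level was 2667, 1244 and 1511 CPM in the neuroepithelial sort, 505 and 646 in the GFP-negative sort and 1186, 1328 and 910 in the ebf3 sort. The wdr12 GFP-positive and ebf3 ranges overlapped, and the GFP-negative libraries lay below both.

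The gene snrpd3 (ENSORLG00000010586), for the SmD3 subunit, had 287, 138 and 196 CPM in the neuroepithelial sort, 56.6 and 62.3 in the GFP-negative sort and 134, 169 and 123 in the ebf3 sort. Every GFP-negative library was below every other library. Its log2 fold change was 1.8 ± 0.35 (edgeR adjusted p = 0.0022) between the sorts of the wdr12 line. It was also the Sm gene called lower in the GFP-negative than in the ebf3 sort, at -1.26 ± 0.35 (adjusted p = 0.049), a call lost without either GFP-negative library and without ebf3 replicate 1 or 2. The gene snrpf (ENSORLG00000016615), for SmF, had 487, 206 and 278 CPM, then 90.5 and 78.5, then 198, 199 and 131 in the same order of groups. Here the 3 groups did not overlap at all, with the neuroepithelial sort highest and the GFP-negative sort lowest. Its log2 fold change was 1.94 ± 0.39 (adjusted p = 0.00257) against the GFP-negative sort and 0.88 ± 0.33 (adjusted p = 0.0643) against the ebf3 sort.

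The gene snrpe, for SmE, had 389, 190 and 208 CPM in the neuroepithelial sort, 69.0 and 91.2 in the GFP-negative sort and 175, 219 and 165 in the ebf3 sort. The log2 fold change of snrpe between the wdr12 sorts was 1.71 ± 0.37 (adjusted p = 0.00401). The gene snrpd1, for SmD1, had 976, 468 and 495 CPM, then 183 and 231, then 446, 459 and 324. Between the wdr12 sorts snrpd1 was at a log2 fold change of 1.64 ± 0.38 (adjusted p = 0.00619). Both followed snrpd3, except that the neuroepithelial libraries of snrpd1 were all above the ebf3 ones. The gene snrpb, for SmB, had the lowest log2 fold change of the ring, 1.24 ± 0.40 (adjusted p = 0.0389), with 75.9 and 144 CPM in the GFP-negative libraries; its call was lost without neuroepithelial replicate 1, without either GFP-negative library and without ebf3 replicate 1 or 2.

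The LSm ring holds the end of the U6 RNA. The gene lsm7, whose protein is also part of a cytoplasmic ring in mRNA decay, had 73.8, 49.6 and 58.4 CPM in the neuroepithelial sort, 23.7 and 25.9 in the GFP-negative sort and 53.3, 58.2 and 39.8 in the ebf3 sort, and was called higher than in the GFP-negative sort at 1.29 ± 0.33 (adjusted p = 0.0123). The gene lsm8, specific to the nuclear ring, had 317, 164 and 169 CPM, then 114 and 105, then 234, 250 and 200, and was not called at 0.98 ± 0.34 (adjusted p = 0.0567). For both genes the GFP-negative libraries lay below all others, and the GFP-positive sorts overlapped.

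The genes lsm10 and lsm11 encode LSm proteins of the U7 particle, which trims the ends of replication-dependent histone mRNAs and does not take part in splicing. The gene lsm11 (ENSORLG00000007434) had 34.7, 29.6 and 14.8 CPM in the neuroepithelial sort, 6.31 and 6.35 in the GFP-negative sort and 5.24, 6.55 and 8.66 in the ebf3 sort. All neuroepithelial libraries were above all others, and the controls overlapped, unlike in most of the splicing genes. It was called higher against the GFP-negative sort, at 2.06 ± 0.50 (adjusted p = 0.00903), and against the ebf3 sort, at 1.95 ± 0.43 (adjusted p = 0.00324), the latter in every fit with 1 library left out and the former not without either GFP-negative library. The gene lsm10 was low, with 12.1, 6.92 and 7.85 CPM, then 1.74 and 1.55, then 4.27, 0.267 and 4.33; its neuroepithelial libraries were also above all others, but its log2 fold changes of 2.44 ± 0.97 (adjusted p = 0.0953) and 1.60 ± 0.79 (adjusted p = 0.174) were not called. The dividing-cell markers given above move with lsm11 in the same direction in both comparisons; their part in its level was not tested.

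Both genes of the U1 particle were called higher in the neuroepithelial than in the GFP-negative sort. The gene snrpa, for a protein that binds U1 RNA directly, had 703, 423 and 357 CPM in the neuroepithelial sort, 158 and 162 in the GFP-negative sort and 339, 384 and 331 in the ebf3 sort. The neuroepithelial libraries overlapped with the ebf3 ones and were all above the GFP-negative pair. Between the wdr12 sorts the log2 fold change was 1.62 ± 0.34 (adjusted p = 0.00367). The gene prpf39, for a U1-associated protein known from yeast, had 162, 123 and 85.9 CPM, then 39.4 and 57.0, then 79.0, 54.3 and 78.9, with a log2 fold change of 1.36 ± 0.35 (adjusted p = 0.0128) between the wdr12 sorts. Its lowest neuroepithelial library was just above the highest ebf3 one, and that difference was not called, at 0.81 ± 0.30 (adjusted p = 0.0689).

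Proteins of the SF3a and SF3b complexes sit on the U2 particle at the branch site. Of the 5 genes found for them, sf3b3, sf3b4, sf3a2 and sf3a3 were called higher in the neuroepithelial than in the GFP-negative sort, and sf3b2 was not called at 0.90 ± 0.31 (adjusted p = 0.0514). The gene sf3b3 (ENSORLG00000013472), for a scaffold subunit of SF3b, had 266, 237 and 192 CPM in the neuroepithelial sort, 58.7 and 72.0 in the GFP-negative sort and 187, 140 and 196 in the ebf3 sort. The GFP-positive sorts overlapped, and both GFP-negative libraries were far below them. Its log2 fold change was 1.83 ± 0.32 (adjusted p = 0.000954) between the wdr12 sorts, 0.41 ± 0.27 (adjusted p = 0.319) between the GFP-positive sorts and -1.41 ± 0.31 (adjusted p = 0.0155) for the GFP-negative against the ebf3 sort.

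The gene sf3a2 had 332, 259 and 192 CPM in the neuroepithelial sort, 103 and 117 in the GFP-negative sort and 271, 254 and 262 in the ebf3 sort. Its GFP-positive sorts overlapped, with a log2 difference of -0.01 ± 0.27 and a 95% interval from -0.54 to 0.52, while the GFP-negative libraries were called lower than each, at 1.24 ± 0.31 (adjusted p = 0.0109) for the neuroepithelial against the GFP-negative sort and -1.25 ± 0.32 (adjusted p = 0.0314) for GFP-negative against ebf3. The gene sf3b2 had 756, 559 and 500 CPM, then 285 and 361, then 636, 668 and 644, and sf3a3 had 239, 152 and 125, then 55.5 and 78.8, then 159, 139 and 122. In both, the GFP-negative libraries were lowest with no overlap.

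RBM5 (1 of 2) (ENSORLG00000001053), a regulator of splice site choice that in mammals acts in early spliceosomes, ran against the other genes of this class. It had 17.4, 20.9 and 49.5 CPM in the neuroepithelial sort, 201 and 281 in the GFP-negative sort and 157, 196 and 135 in the ebf3 sort. All 3 neuroepithelial libraries were below all others. It was called lower than in the GFP-negative sort, at -3.04 ± 0.41 (adjusted p = 0.000165), and lower than in the ebf3 sort, at -2.47 ± 0.38 (adjusted p = 0.000219), in every fit with 1 library left out. It was the 1 member called lower than both controls, and the log2 difference between the controls was 0.57 ± 0.39 (adjusted p = 0.509). The name marks it as 1 of several copies in the annotation, so reads shared with a copy could be split in a way that was not tested.

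The 3 genes of the U4/U6 and U5 particles were all called higher in the neuroepithelial than in the GFP-negative sort. The gene prpf8 (ENSORLG00000008036), for the protein at the heart of the catalytic centre, had 778, 472 and 430 CPM in the neuroepithelial sort, 161 and 200 in the GFP-negative sort and 414, 326 and 358 in the ebf3 sort. The 3 groups did not overlap. Its log2 fold change was 1.64 ± 0.34 (adjusted p = 0.00348) between the wdr12 sorts and 0.61 ± 0.29 (adjusted p = 0.157) between the GFP-positive sorts. The gene snrnp200, for the helicase that unwinds U4 from U6, had 490, 282 and 244 CPM, then 120 and 127, then 223, 212 and 197, with a log2 fold change of 1.46 ± 0.34 (adjusted p = 0.00723) between the wdr12 sorts. The gene prpf3, for a U4/U6 protein, had 248, 165 and 131 CPM, then 57.7 and 76.9, then 144, 139 and 105, with 1.43 ± 0.35 (adjusted p = 0.00844). The GFP-negative libraries were lowest for both, without overlap.

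The 3 genes that act in the catalytic spliceosome were called higher in the neuroepithelial than in the GFP-negative sort as well, but differed against the ebf3 sort. The gene aqr, for an intron-binding helicase, had 92.9, 76.4 and 54.0 CPM in the neuroepithelial sort, 24.8 and 25.8 in the GFP-negative sort and 37.6, 39.9 and 48.3 in the ebf3 sort. The 3 groups did not overlap, and aqr was called higher than in both controls, at 1.56 ± 0.34 (adjusted p = 0.00422) and 0.83 ± 0.29 (adjusted p = 0.0473). The second call was lost in 6 of the 8 fits with 1 library left out, with adjusted p from 0.0157 to 0.168. The gene bcas2, for a subunit of the Prp19 complex, had 290, 174 and 177 CPM, then 76.4 and 85.7, then 257, 256 and 162; its GFP-positive sorts overlapped, at -0.07 ± 0.29, and the GFP-negative libraries were called lower than the ebf3 sort, at -1.47 ± 0.35 (adjusted p = 0.0229). The gene plrg1, for another subunit of that complex, had 324, 235 and 167 CPM, then 74.2 and 103, then 177, 170 and 142, and was called between the wdr12 sorts at 1.45 ± 0.34 (adjusted p = 0.00747).

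Both SR protein genes were called higher in the neuroepithelial than in the GFP-negative sort. The gene srsf7a had 178, 125 and 110 CPM in the neuroepithelial sort, 57.9 and 50.0 in the GFP-negative sort and 127, 115 and 95.9 in the ebf3 sort, with a log2 fold change of 1.36 ± 0.32 (adjusted p = 0.00705). The gene srsf1a (2 of 2) had 68.7, 39.2 and 39.0 CPM, then 14.1 and 18.9, then 35.1, 22.6 and 24.97, with 1.56 ± 0.40 (adjusted p = 0.0108). The GFP-negative libraries were lowest for both without overlap; the GFP-positive sorts overlapped for srsf7a and did not for srsf1a (2 of 2).

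**Figure D3:**
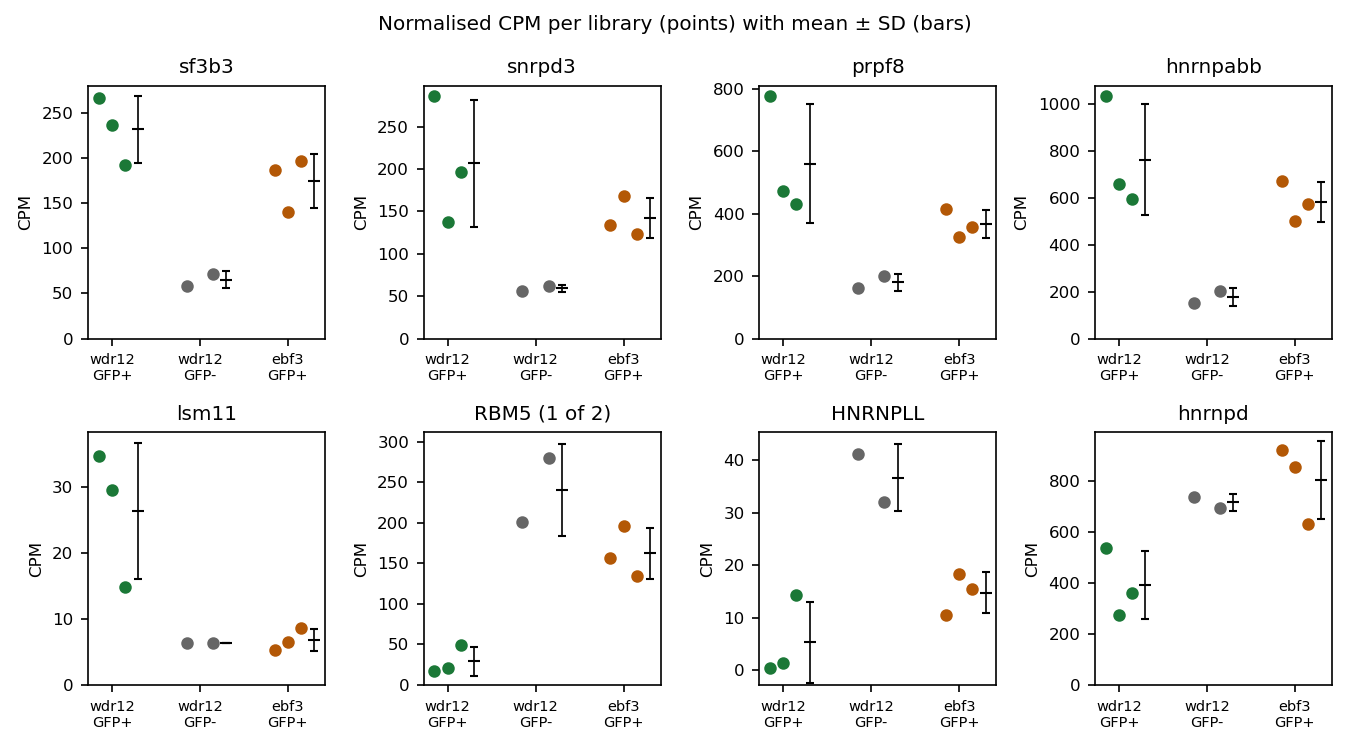
Normalised CPM (vertical axes) of 8 splicing factor genes in each library (points) of the 3 groups (horizontal axes), with the group mean ± SD as bars. In the upper row (sf3b3, snrpd3, prpf8, hnrnpabb) the 2 wdr12 GFP-negative libraries lie lowest. In the lower row the wdr12 GFP-positive libraries lie highest for lsm11 and lowest for RBM5 (1 of 2) and hnrnpd. HNRNPLL has its lowest mean in wdr12 GFP-positive cells, where replicate 3 lies within the ebf3 range.

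Of the 9 hnRNP genes, 3 were called higher in the neuroepithelial than in the GFP-negative sort, 1 was called lower and 5 were not called, with a median log2 fold change of 0.94 and a range from -2.77 to 2.11. Among the tested genes in the authors' sheets 29.9% were called higher and 30.7% lower, so 3 of 9 is near the share of listed genes. Their summed level was 5425, 2754 and 3265 CPM in the neuroepithelial sort, 2337 and 2486 in the GFP-negative sort and 5548, 4947 and 3407 in the ebf3 sort. The GFP-negative libraries were again the lowest. The gene hnrnpabb (ENSORLG00000015501), for an hnRNP of the A/B type, had 1033, 661 and 594 CPM, then 150 and 203, then 671, 502 and 572, so that the GFP-negative libraries lay far below an overlapping pair of GFP-positive sorts. It stood at a log2 fold change of 2.11 ± 0.35 (adjusted p = 0.000726) between the wdr12 sorts and -1.72 ± 0.35 (adjusted p = 0.00998) for the GFP-negative against the ebf3 sort. Its paralogue hnrnpaba had 501, 357 and 328 CPM, then 151 and 180, then 585, 390 and 433, with 1.26 ± 0.33 (adjusted p = 0.0127) and -1.51 ± 0.33 (adjusted p = 0.0152) in the same comparisons; the authors' sheets also name the pair as copies of 1 gene, and reads shared between them were not separated here.

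Other hnRNP genes varied widely within a sort. The gene hnrnpa1b, whose mammalian counterpart opposes SR proteins in splice site choice, had 1365, 377 and 821 CPM in the neuroepithelial sort, 556 and 608 in the GFP-negative sort and 1354, 1549 and 619 in the ebf3 sort. It overlapped between the wdr12 sorts and between the GFP-positive sorts and was called in no comparison. The gene hnrnpm had 1318, 587 and 673 CPM, then 413 and 479, then 1200, 1110 and 679; the GFP-negative libraries were lowest without overlap, and the log2 fold change of 0.95 ± 0.39 between the wdr12 sorts was not called (adjusted p = 0.109). HNRNPA0 (2 of 5), at 0.94 ± 0.34 (adjusted p = 0.0682), was not called either, and hnrnpub, at 1.13 ± 0.33 (adjusted p = 0.0262), was. The call of hnrnpub was lost without neuroepithelial replicate 1 or 2, without either GFP-negative library and without ebf3 replicate 2.

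In a few hnRNP genes the neuroepithelial libraries were the lowest. The gene hnrnpd (ENSORLG00000001833), for a protein also known as AUF1 that binds AU-rich elements of mRNAs, had 537, 275 and 361 CPM in the neuroepithelial sort, 739 and 693 in the GFP-negative sort and 921, 856 and 631 in the ebf3 sort. All neuroepithelial libraries were below all others. It was called lower than in the ebf3 sort, at -1.04 ± 0.30 (adjusted p = 0.0198), and not against the GFP-negative sort, at -0.87 ± 0.33 (adjusted p = 0.0776); the call was lost without neuroepithelial replicate 2 and without ebf3 replicate 1 or 2. The gene hnrnpa3 had 9.43, 5.31 and 8.36 CPM, then 22.8 and 14.3, then 21.5, 34.1 and 15.6, again with no overlap, and was called lower than in the ebf3 sort, at -1.62 ± 0.42 (adjusted p = 0.00936), except without ebf3 replicate 2 (adjusted p = 0.0648).

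HNRNPLL (ENSORLG00000001005), which in mammals is known for its part in the splicing of CD45 in T cells, had 0.433, 1.5 and 14.3 CPM in the neuroepithelial sort, 41.1 and 32.1 in the GFP-negative sort and 10.6, 18.3 and 15.5 in the ebf3 sort. Replicate 3 of the neuroepithelial sort stood far above the other replicates and within the ebf3 range. HNRNPLL was called lower than in the GFP-negative sort, at -2.77 ± 0.84 (adjusted p = 0.0295), a call lost without either GFP-negative library and without neuroepithelial replicate 2. Its difference from the ebf3 sort was -1.47 ± 0.77 (adjusted p = 0.205), and it was called there without neuroepithelial replicate 3 (adjusted p = 0.000154). The same replicate 3 had the highest level of the 3 for RBM5 (1 of 2), and the highest level of 10 of the 11 neuronal marker genes, for example snap25a at 27.3, 47.6 and 141 CPM; the part of neuronal RNA in these values was not tested.

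The last group holds RBM proteins, which carry RNA recognition motifs, and an LSm-domain protein outside the rings. The gene rbm4.3 (1 of 2), of a family that in mammals regulates alternative splicing, had 126, 128 and 80.7 CPM in the neuroepithelial sort, 31.3 and 33.3 in the GFP-negative sort and 166, 114 and 141 in the ebf3 sort. The GFP-positive sorts overlapped and the GFP-negative libraries were lowest. Its log2 fold change was 1.79 ± 0.33 (adjusted p = 0.00146) between the wdr12 sorts and -2.12 ± 0.34 (adjusted p = 0.00279) for the GFP-negative against the ebf3 sort, the second being lost without GFP-negative replicate 1 (adjusted p = 0.0509). The other copy, rbm4.3 (2 of 2), had 49.1, 53.1 and 42.1 CPM, then 13.1 and 27.1, then 52.2, 44.1 and 30.0, and was called between the wdr12 sorts at 1.25 ± 0.39 (adjusted p = 0.0332). That call was lost without neuroepithelial replicate 1 or 2, without GFP-negative replicate 1 and without ebf3 replicate 2. The gene rbm18 had 56.1, 37.6 and 46.2 CPM, then 26.1 and 23.5, then 62.7, 55.0 and 57.8, and was called lower in the GFP-negative than in the ebf3 sort, at -1.24 ± 0.32 (adjusted p = 0.0371). The call of rbm18 was lost without either GFP-negative library and without any 1 of the ebf3 libraries. For rbm4.3 (2 of 2) and rbm18 the GFP-negative libraries were the lowest.

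The gene lsm14ab, for a protein that in other species represses translation in cytoplasmic granules, had 28.3, 35.8 and 34.7 CPM in the neuroepithelial sort, 13.7 and 9.45 in the GFP-negative sort and 10.5, 12.8 and 23.3 in the ebf3 sort. Its neuroepithelial libraries were above all others. It was called higher than in the GFP-negative sort, at 1.51 ± 0.44 (adjusted p = 0.0228), and than in the ebf3 sort, at 1.09 ± 0.37 (adjusted p = 0.0449), the latter lost in 6 of 8 fits with 1 library left out. RBM47, known in mammals as a cofactor of mRNA editing and a splicing regulator in epithelia, had 1.30, 15.2 and 16.1 CPM, then 4.79 and 1.55, then 1.79, 0.669 and 2.0. Replicate 1 of the neuroepithelial sort lay within the ebf3 range while the other replicates were far above it; the call against the ebf3 sort, at 2.86 ± 0.87 (adjusted p = 0.0258), was lost in 4 of 8 fits. The gene rbm24a, a muscle splicing regulator in other vertebrates, was near the detection limit, with 0.650, 2.77 and 5.79 CPM, then 5.66 and 5.67, then 0, 0.401 and 0.832, and was called in no comparison.

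The second comparison sets the neuroepithelial sort against the post-mitotic progenitors and neurons of the ebf3 line. Called higher in the neuroepithelial sort were 4 members (lsm11, aqr, lsm14ab and RBM47), or 9.76%. Of all genes tested 12.7% were higher, and of those in the authors' sheets 37.9%. Called lower were 3 members (RBM5 (1 of 2), hnrnpd and hnrnpa3), or 7.32%, beside 10.8% of all genes and 31.8% of those in the sheets. Both member shares were near those of all genes and well below those of genes in the sheets, from which all members came. The other 34 were not called. The median log2 fold change was 0.39, or 1.31-fold, beside 0.01 over all genes and 0.28 over the genes with a symbol, with 27 members positive and 14 negative. A p above the threshold does not show equal levels. The 95% interval of the log2 fold change lay within -1 and 1 for 17 of the 34 genes not called. For the remaining 17 a difference of 2-fold was not excluded. These normal-theory intervals do not allow for the small number of libraries and may be too narrow. The groups did not overlap for 12 members with the neuroepithelial sort above (19.9% of all genes) and 3 with it below (17.8%).

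By role, the median log2 fold change between the GFP-positive sorts was 0.60 for the Sm ring, 0.65 for the U1 particle, 0.61 for the U4/U6 and U5 particles, 0.57 for the catalytic spliceosome, 0.56 for the SR proteins, 0.64 for the RBM and LSm-domain class and 1.78 for the 2 U7 genes. It was 0.10 for the LSm ring, 0.14 for the U2 class and -0.26 for the hnRNPs. The smallest adjusted p among the Sm, U1, U4/U6 and U5 and SR genes was the 0.0643 of snrpf; the medians are descriptions of sets of 2 to 9 genes. Without neuroepithelial replicate 1 the median over all members fell from 0.39 to 0.12, so the size of the difference leans on that library. Without either GFP-negative library 2 members were called higher (11.1% of all genes without replicate 1 and 10.9% without replicate 2), and without ebf3 replicate 1 or 2, 1 was (10.2% and 9.94%); the lower calls numbered 1 without ebf3 replicate 2 (8.6%).

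The third comparison sets the GFP-negative remainder of the wdr12 line against the ebf3 sort. Of the 41 genes, 8 were called lower in the GFP-negative sort (19.5%, where 1.96% of all genes tested and 6.18% of those in the authors' sheets were): rbm4.3 (1 of 2), hnrnpabb, hnrnpaba, sf3b3, bcas2, sf3a2, rbm18 and snrpd3. None was called higher (3.16% of all genes and 9.27% of those in the sheets) by edgeR, with 1 at an unadjusted p under 0.05. DESeq2 called 1 higher (5.97% of its genes). The authors' deposited values, at an adjusted p under 0.05 and a log2 fold change of at least 1, gave 2 members higher and 22 lower. Over all genes those shares were 5.42% and 4.31%, and the same thresholds had chosen the members. The 8 members called lower by edgeR were all among those 22. The median log2 fold change was -1.01, that is, 2.02-fold lower in the GFP-negative sort, with 37 members negative and 4 positive, beside medians of 0.01 over all genes and 0.19 over the genes with a symbol. The GFP-negative libraries lay below the ebf3 sort without overlap for 30 members (19.5% of all genes) and above for 3 (21.9%).

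The count of calls in this comparison depended strongly on the fit, although all 8 called members kept their sign in every fit tried. With only these 2 groups in the fit, 24 members were called lower (5.34% of its genes) and 1 higher (6.04%), and DESeq2 called 20 lower (5.33% of its genes). In the fit of all 3 groups the spread is shared with the neuroepithelial libraries. The members' median coefficient of variation was 33.4% in the neuroepithelial sort, 14.3% in the GFP-negative sort and 19.0% in the ebf3 sort. Over all genes these medians were 39.1%, 22.0% and 34.5%. The GFP-negative values rest on 2 libraries. The part of this spread in the counts of calls was not tested. Without neuroepithelial replicate 1, 20 members were called lower (3.7% of all genes). Calls rose over all genes too. Without GFP-negative replicate 1 none was (14 at an unadjusted p under 0.05; 0.153% of all genes were called). Without GFP-negative replicate 2 or ebf3 replicate 1, 1 was (0.219% and 0.538%), and without ebf3 replicate 2, 4 were (0.906%). The median remained at -0.87 without GFP-negative replicate 1 and -1.09 without replicate 2.

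The 2 control groups also differ in cell types other than neurons and progenitors. Oligodendrocyte markers (6 found) summed to 3049 to 4382 CPM in the GFP-negative sort, 185 to 766 in the ebf3 sort and 567 to 1252 in the neuroepithelial sort. Radial glia markers (5 found) summed to 1045 to 1354, 256 to 314 and 491 to 1986 CPM in the same order. Microglia markers (4 found) summed to 606 to 646, 56.4 to 207 and 624 to 1259 CPM, endothelial and mural markers (3 found) to 59.1 to 67.4, 94.96 to 96.7 and 126 to 235, and erythrocyte markers (5 genes) to 26697 to 135571, 323 to 833 and 129 to 866. Plasma protein transcripts of the liver (2 found) summed to 15122 to 16467, 511 to 2562 and 23133 to 100941 CPM. Some single genes ran against the sums. In the GFP-negative against the ebf3 sort, 1 of the 3 endothelial and mural genes was called higher and 1 of the 6 oligodendrocyte genes lower. Another count was 1 oligodendrocyte gene called higher in the neuroepithelial than in the GFP-negative sort. No listed marker was at 0 in a library, and the part of these cell types in the lower splicing factor levels was not tested.

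**Figure D4:**
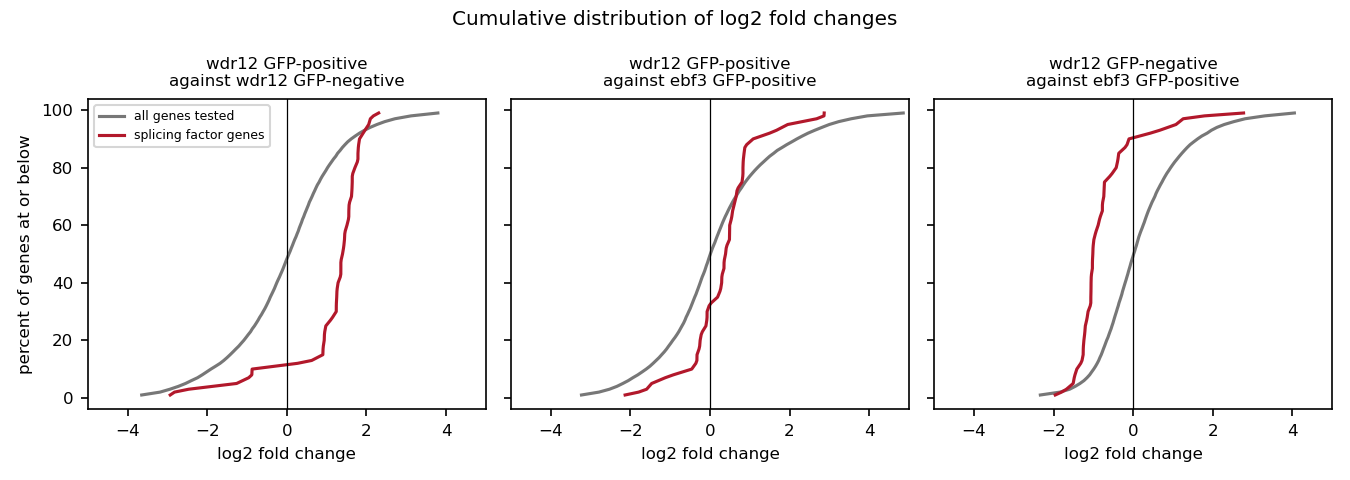
Cumulative distribution (percent of genes at or below, vertical axes) of the log2 fold change (horizontal axes) of the 41 splicing factor genes and of all 15640 genes tested, in the 3 comparisons. The 2 curves cross in each panel. Between the wdr12 sorts the splicing factor curve lies to the right of all genes up to percentile 93 (medians 1.40 and 0.05). For GFP-negative against ebf3 GFP-positive cells it lies to the left from percentile 3 up (-1.01 and 0.01). Between the GFP-positive sorts it lies to the right up to percentile 70 and to the left above it (0.39 and 0.01).

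Read across the comparisons, 25 of the 41 genes were called higher in the neuroepithelial than in the GFP-negative sort and not called between the GFP-positive sorts, and 3 (lsm11, aqr and lsm14ab) were called higher than both controls. For 7 genes, the neuroepithelial libraries were called above and the ebf3 sort also above the GFP-negative sort; 7 were called in no comparison. The comparisons share libraries, so these counts are not independent of each other. The shares of all genes with the same patterns were not computed, so the counts describe the members only.

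Other genes of the splicing pathway, again limited to those the authors had listed, were counted from lists by role. The shares of all genes and of genes in the sheets given above for each comparison are the background of these counts too. Of 14 other core spliceosome genes, 9 were called higher in the neuroepithelial than in the GFP-negative sort and 2 lower, with a median log2 fold change of 1.38. Among them ctnnbl1, for a Prp19-associated protein, was at 2.08 ± 0.39 (adjusted p = 0.00163), and eftud2, for the GTPase of the U5 particle, at 1.62 ± 0.34 (adjusted p = 0.00344). The exceptions were the helicase gene DDX5 (1 of 3), at -1.16 ± 0.30 (adjusted p = 0.013), and SMU1 (1 of 2), at -3.50 ± 0.83 (adjusted p = 0.00727). Against the ebf3 sort 3 were called lower (DDX5 (1 of 3), SMU1 (1 of 2) and DDX17 (1 of 2)), with a median of 0.44. The GFP-negative against the ebf3 sort gave a median of -0.99.

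All 5 genes of snRNP assembly found were called higher in the neuroepithelial than in the GFP-negative sort, with a median log2 fold change of 1.53, and 2 of them also against the ebf3 sort. The gene smn1, for the SMN protein that loads Sm rings onto RNA, had 192, 121 and 108 CPM in the neuroepithelial sort, 47.2 and 40.4 in the GFP-negative sort and 73.6, 63.8 and 60.4 in the ebf3 sort. Its neuroepithelial libraries were above all others, at 1.68 ± 0.34 (adjusted p = 0.00235) and 1.09 ± 0.28 (adjusted p = 0.0102). The gene gemin4, for a partner of SMN, was at 1.02 ± 0.34 (adjusted p = 0.0462) and 1.30 ± 0.30 (adjusted p = 0.0044). Of 7 genes of the exon junction complex and mRNA export, 6 were called higher in the neuroepithelial than in the GFP-negative sort, and upf3a, a factor of nonsense-mediated decay, was called lower than in both controls, at -2.87 ± 0.50 (adjusted p = 0.000978) and -2.32 ± 0.47 (adjusted p = 0.00177). The export genes alyref and thoc1 were called lower in the GFP-negative than in the ebf3 sort.

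Kinases of SR proteins and regulators tied to cell types had negative medians. The 3 genes found for SR kinases and SR-like proteins, SRPK2, srpk1a and clasrp, were all called lower in the neuroepithelial sort than in each control. The gene srpk1a had 80.4, 54.1 and 93.8 CPM in the neuroepithelial sort, 193 and 205 in the GFP-negative sort and 158, 160 and 145 in the ebf3 sort, with no overlap, and was at -1.39 ± 0.30 (adjusted p = 0.00388) and -1.02 ± 0.27 (adjusted p = 0.012). Of 31 genes for cell type-specific regulators, 8 were called higher and 11 lower than in the GFP-negative sort (29.9% and 30.7% of the genes in the sheets), and 4 higher and 15 lower than in the ebf3 sort (37.9% and 31.8%), with medians of -0.79 and -0.93.

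Among the regulators called higher, ptbp1a, whose mammalian counterpart represses neuronal exons in progenitors, had 28.1, 35.6 and 25.5 CPM in the neuroepithelial sort, 6.09 and 1.55 in the GFP-negative sort and 5.37, 1.47 and 9.49 in the ebf3 sort. It was at 2.98 ± 0.73 (adjusted p = 0.00867) and 2.46 ± 0.59 (adjusted p = 0.00622) against the controls. MSI1 (1 of 3), an RNA-binding protein of neural progenitors, was at 2.16 ± 0.46 (adjusted p = 0.00364) and 2.10 ± 0.39 (adjusted p = 0.00095). Among those called lower than both controls were elavl2, for a neuronal RNA-binding protein, with 8.89, 7.15 and 12.6 CPM, then 59.0 and 76.8, then 61.2, 71.3 and 54.3, CELF6 at -2.61 ± 0.37 (adjusted p = 0.000215) and -2.64 ± 0.35 (adjusted p = 7.1e-05), and khdrbs3 at -2.31 ± 0.34 (adjusted p = 0.000281) and -3.06 ± 0.33 (adjusted p = 1.8e-05). Between the controls 3 of the 31 were called lower in the GFP-negative than in the ebf3 sort (nono, syncripl and elavl3). The neuronal marker sums given above were lower in the neuroepithelial sort, as these lower regulators were and unlike ptbp1a and MSI1 (1 of 3). The genes elavl3 and elavl4 stand in both lists, and the part of neuronal RNA in these levels was not tested.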

How the data were processed

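RNA from sorted cells was read from a single end, per the labels' protocols; the submitters' processing notes name CASAVA 1.8.2, FastQC 0.10.1, TopHat2 and DESeq. Not given in the sources used here are the counting program, its use of strand, the build and the gene models, so genes are named by the authors' Ensembl IDs and symbols, without coordinates. The deposited tables hold, per the file headers, whole read counts per gene and library, and the authors' log2 fold changes and adjusted p-values for each comparison. The 3 tables were joined on the gene ID (131234 shared values equal, 0 differing; 17142 genes in any table, 16957 in all); 0 other per-sample columns were present. The lowest gene total in a table was 11, so rarer genes had been removed before deposit. Symbols came from the authors' 8 sheets of listed genes (4662 IDs), and 2 members carry more than 1 symbol. No sequences are printed, since none were at hand.

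Counts of all 3 groups were fitted together in edgeR 4.0.16 (R 4.3.3; limma 3.58.1) with TMM normalisation, the default filterByExpr filter, a quasi-likelihood F test (two-sided) and Benjamini-Hochberg adjustment over 15640 genes; the common biological coefficient of variation was 0.514. SE is the log2 fold change over the square root of F, and 95% intervals are normal-theory bounds, which may be too narrow with few libraries. DESeq2 1.42.0 was an alternative. Tables and figures used Python 3.11.15, pandas 2.3.3, numpy 2.4.6 and matplotlib 3.10.9.

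Replicates of a group differed beyond sampling noise (chi-square per degree of freedom 17.5 to 132). The labels do not say that replicates came from separate pools of fish, so p-values measure the spread between these libraries. Depth sets the precision of low genes, and precision from counts covers counting error only. The members, lists and roles were chosen with earlier results of these data known, and no p is given over a list. Levels are not compared between genes, because gene lengths were not at hand. Values are given for up to 4 members per role with the highest level, the 10 with the smallest adjusted p among those called in each comparison, every member called lower in wdr12 GFP-positive cells and up to 3 called genes per other list; SNRPG, sf3b4, HNRNPA0 (2 of 5), hnrnpub and rbm24a were named outside this rule, after their values were seen. Copies marked (n of m) are uncertain where reads fit several copies. The alternatives were other size factors, DESeq2, no filter, only the groups compared, a replicate block, no globin genes, members without (n of m) copies, library totals and each replicate left out.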

Additional observations from a re-analysis of the deposited data

How the results depend on the processing

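No member called in the fit of all 3 groups changed sign under any alternative run. Between the wdr12 sorts, 28 higher and 2 lower calls became 23 and 1 without (n of m) copies, 34 and 4 by DESeq2, 26 and 1 with only the groups compared, and 24 and 4 with library totals, an alternative chosen after seeing the data. Leaving out 1 neuroepithelial or ebf3 library gave 25 to 30 higher (8.26 to 11.5% of all genes) and 1 to 4 lower (9.11 to 11.8%). The fits with 1 GFP-negative library, given above, called fewer higher. Between the GFP-positive sorts, 4 higher and 3 lower became 9 and 3 by DESeq2 and 1 and 3 with library totals. Without 1 neuroepithelial or ebf3 library, 1 to 4 were called higher (9.94 to 13% of all genes) and 1 to 4 lower (8.01 to 12%). For GFP-negative against ebf3 GFP-positive cells, 0 higher and 8 lower became 1 and 20 by DESeq2, 1 and 24 with only the groups compared, and 0 and 5 without (n of m) copies. Without 1 neuroepithelial or ebf3 library, 0 were called higher (1.36 to 4.84% of all genes) and 1 to 20 lower (0.538 to 3.7%). Again, the fits with 1 GFP-negative library are given above. The cause of the changes between fits was not tested. In the 3 comparisons DESeq2 called 14.5% of its genes higher and 13.4% lower, 14.7% and 12.3%, and 5.97% and 5.33%. With library totals, all genes called higher and lower numbered 965 and 2309 between the wdr12 sorts. Between the GFP-positive sorts they numbered 1562 and 2449. Leaving out (n of m) copies did not change the fit. It only dropped those members, with their calls, from the counts. Its shares of all genes therefore stand as given above. Library totals shifted the median of all genes by -0.40, -0.24 and 0.15 in the 3 comparisons; relative to it the members' medians were 1.33, 0.36 and -1.03.

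Deviations of same-numbered libraries from their group means correlated at -0.185 and -0.223 between the wdr12 sorts. They correlated at 0.221, -0.143 and 0.0141 between the GFP-positive sorts, and at -0.144 and 0.0323 between the controls. The deviations of the 2 GFP-negative libraries mirror each other by construction. These few values therefore cannot show whether the numbers pair the samples, and the labels do not say. With the replicate block, the higher and lower calls were 28 and 2, 3 and 4, and 1 and 12 in the 3 comparisons. That fit called 1477 and 1644, 2014 and 1743, and 819 and 373 of all genes. Over all genes the fit of all 3 groups called 494 higher and 307 lower for GFP-negative against ebf3 GFP-positive cells, DESeq2 788 and 704, the fit of only these groups 852 and 753, and the block 819 higher; between the wdr12 sorts, 1551 and 1539 became 965 and 2309 with library totals. The 2 GFP-negative libraries, the shallowest of which is replicate 1, limit the precision of both comparisons they enter.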
